A study of Homo sapiens with 12 samples.

Results

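Expression of 7 hypoxia response genes was followed by RNA sequencing through 12 libraries of WM1366, an established human cutaneous melanoma line. The genes were ADM, ANGPTL4, VEGFA, NDRG1, BNIP3, PDK1 and KDM3A, chosen by symbol, and all 7 were among the 12931 gene rows of every library with at least 3 reads in each. The libraries formed 3 groups of 4, called control, R1 and R2. Control libraries came from animals on a control diet, and both R1 and R2 from animals whose diet held a MEK inhibitor together with a CDK4/6 inhibitor. The series is on acquired resistance and describes xenograft tumours that were progressing at collection. The sample labels instead describe cultured cells and name palbociclib (0.1 uM, a CDK4/6 inhibitor) and PD0325901 (1 nM, a MEK inhibitor) for every sample, so the controls carry that treatment text too. What distinguishes R1 from R2, and whether replicates were separate tumours, animals or cultures, is not given, so p-values here measure the spread between these samples alone. A single cell line was used, and reads of a mouse host were not separated here.

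Cells short of oxygen stabilise the alpha subunits of hypoxia-inducible factor (HIF), which prolyl hydroxylases otherwise mark for destruction through the VHL protein. The stabilised alpha subunit, HIF-1 alpha (gene HIF1A) or HIF-2 alpha (EPAS1), pairs with ARNT, binds short DNA sites with the core letters ACGTG or GCGTG and raises transcription of genes for blood vessel growth, glycolysis and mitochondrial removal. Melanomas hold poorly perfused regions in which such genes are known to be active, although growth factor signalling and amino acid shortage can raise several of them as well. Among the 7 genes, ADM, ANGPTL4 and VEGFA encode secreted proteins, BNIP3, PDK1 and KDM3A encode proteins that act on mitochondria or chromatin, and NDRG1 encodes a cytoplasmic stress protein.

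Promoter letters were read from RefSeq (GRCh38.p14) for the 5 genes with an entry, ADM, ANGPTL4, BNIP3, KDM3A and PDK1, and not for VEGFA and NDRG1. The promoters of 3 genes are shown, ADM and ANGPTL4 because they were the genes called different between groups, and BNIP3 because it followed single libraries and held the most core letters. Each is the 250 bases before the RefSeq start, 5′ to 3′ on the gene's strand, with ACGTG or GCGTG on either strand in capitals. The windows are chr11:10304823-10305072 (plus strand) for ADM, chr19:8363905-8364154 (plus strand) for ANGPTL4 and chr10:131981924-131982173 (minus strand) for BNIP3.
ADM: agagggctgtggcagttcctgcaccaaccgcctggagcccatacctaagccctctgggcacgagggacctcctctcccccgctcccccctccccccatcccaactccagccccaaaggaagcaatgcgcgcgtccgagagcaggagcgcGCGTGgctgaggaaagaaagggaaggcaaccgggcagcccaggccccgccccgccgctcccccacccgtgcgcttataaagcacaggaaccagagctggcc
ANGPTL4: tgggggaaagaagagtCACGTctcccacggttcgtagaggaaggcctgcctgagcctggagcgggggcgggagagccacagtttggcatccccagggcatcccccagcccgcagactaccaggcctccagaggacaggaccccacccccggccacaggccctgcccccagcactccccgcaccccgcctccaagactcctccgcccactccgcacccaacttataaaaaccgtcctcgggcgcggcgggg
BNIP3: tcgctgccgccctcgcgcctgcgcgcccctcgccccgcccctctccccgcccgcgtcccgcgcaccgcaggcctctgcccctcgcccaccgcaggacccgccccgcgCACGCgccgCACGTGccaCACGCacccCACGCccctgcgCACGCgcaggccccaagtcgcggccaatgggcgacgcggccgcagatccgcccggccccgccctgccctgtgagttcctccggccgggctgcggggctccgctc
ADM held 1 GCGTG, starting at base -101 from the start site, and ANGPTL4 held 1 ACGTG, at -234. BNIP3 held 6 matches between -143 and -104, 4 of GCGTG and 2 of ACGTG, the last 2 being both strands of 1 palindrome. Over the window used for counting, 250 bases before to 50 after the start, KDM3A held 1 GCGTG at -26 and PDK1 held neither. Either core was present in 4 of the 5 (80.0%), in 64.2% of 9317 promoters of genes measured here and in 48.4% of all 27305 promoters in the table. The letters describe these windows and do not show binding.

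Values are normalised reads, the authors' read numbers per gene scaled by a factor per library. That factor did not follow recovered reads alone. A single read had a value of 0.0521 in control replicate 3 (20844670 reads) and 0.0439 in R1 replicate 2 (21456002 reads). Depth ranged from 20003891 to 39009384 recovered reads per library. Control replicates 3 and 4 and replicate 2 of R1 had the 3 lowest depths. On the third principal component of 12686 genes (8.26% of variance), computed without the genes of the lists used here, R1 replicate 2 lay at -37.5, R2 replicate 2 at -13.1 and control replicates 3 and 4 at -12.1 and -9.94, whereas control replicates 1 and 2 lay at 15.9 and 9.07. Of 12 melanoma markers 4 were among the measured genes (MITF, PMEL, SOX9 and AXL), with a summed level of 1608 to 1786 in control, 797 to 1136 in R1 and 1426 to 1629 in R2. AXL made up most of that sum, and PMEL went the other way, rising in R1 (27.1 against 5.32, log2 fold change 2.24, adjusted p = 1.5e-06, limma) and in R2 (8.81, 0.66, adjusted p = 0.0283). Of 14 endothelial markers 5 were measured, with sums of 181 to 223, 453 to 602 and 156 to 213, the highest in R1 replicate 2, and EGFL7 was at 0 in R2 replicates 2, 3 and 4. The 8 of 14 fibroblast and pericyte markers summed to 1441 to 1620, 1222 to 1397 and 1601 to 1745. MCAM (mean 881) and THY1 (553) made up most of that sum in R2. In R2 against control THY1 rose (0.39), PDGFRB (-2.34), LUM (-1.46) and CSPG4 (-1.15) fell, and the other 4 were not called. The 3 of 20 leukocyte markers summed to 1.76 to 4.17, 4.70 to 16.3 (the highest again in R1 replicate 2) and 2.88 to 12.8. Most of the leukocyte sum in R2 was CD53 (mean 7.30), while CSF1R and LAPTM5 fell in R2 against control (-1.20 and -1.03). Mitochondrial transcripts took 2.17% to 3.28% of reads in R1, 5.86% to 10.9% in control and 4.02% to 9.63% in R2, and ribosomal protein transcripts took 9.61% ± 0.964, 5.32% ± 0.313 and 5.80% ± 0.448 (SD, n = 4). The part of these cell types and read shares in the results on the 7 genes was not tested. In bulk RNA, fewer cells of a type and less RNA per cell cannot be told apart.

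**Figure D1:**
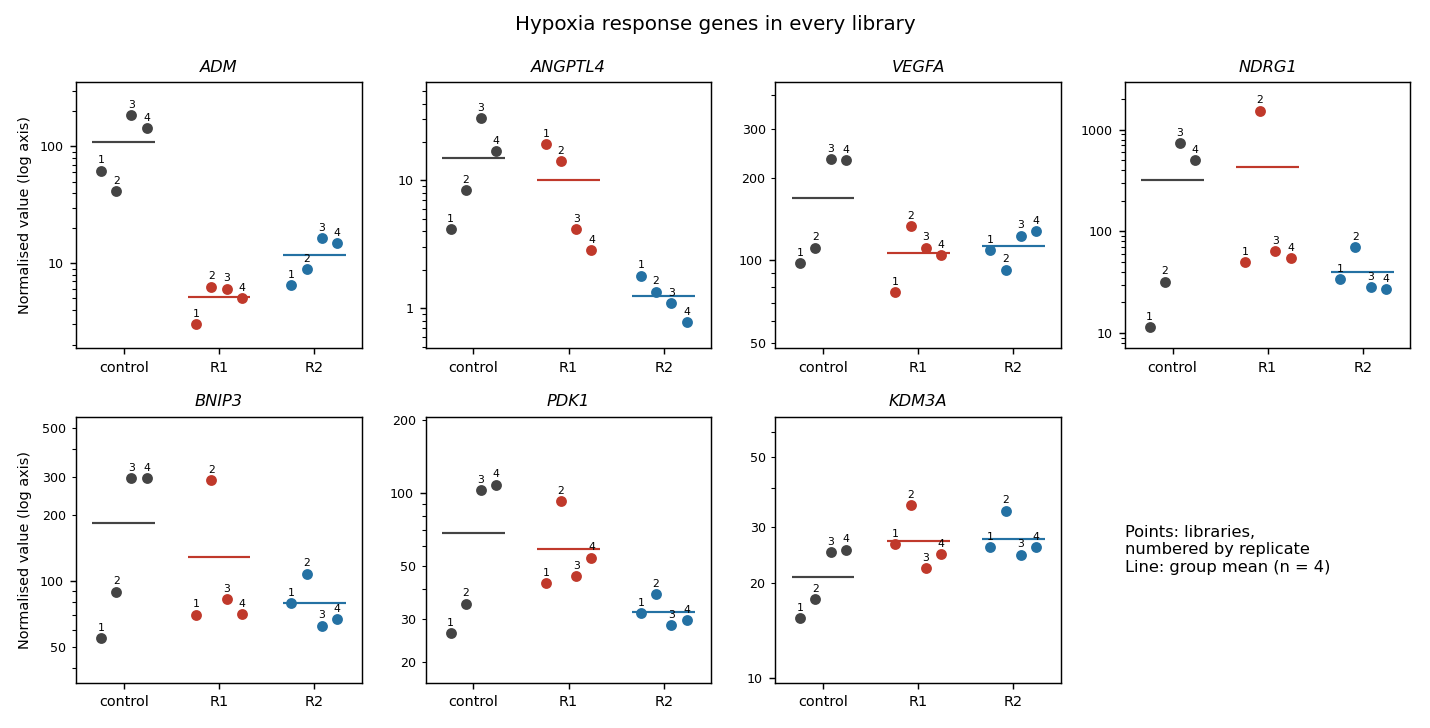
Normalised value (log axis) of each gene in the 12 libraries, as points numbered by replicate, with the arithmetic group mean (n = 4) as a line. ADM separates all 3 groups, ANGPTL4 sets R2 apart, and NDRG1, BNIP3 and PDK1 are high in control replicates 3 and 4 and in R1 replicate 2.

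Among the 7 genes, ADM and ANGPTL4, which encode secreted factors, gave the only differences between groups that passed the test. ADM, the vasodilator peptide adrenomedullin, was lower in every library of R1 and R2 than in any control library, and ANGPTL4, an inhibitor of lipoprotein lipase, was lower in every R2 library than in any library of the other groups. Of the 7 genes, 0 rose and 1 fell in R1 against control (adjusted p under 0.05, limma), where 43.8% of all 12931 genes were called, 22.4% higher and 21.4% lower. In R2 against control 0 rose and 2 fell, where 28.4% of all genes were called, 14.8% lower. In R2 against R1 1 rose and 1 fell, where 46.8% of all genes were called, 22.8% higher and 24.0% lower. The median log2 fold change of the 7 was -0.46, -0.89 and -0.43 in the 3 comparisons, beside 0.01, 0.03 and -0.00 over all genes. The share of the 7 that was called was below that of all genes in R1 against control and in R2 against R1, and about equal to it in R2 against control. Both comparisons with control use the same 4 control libraries.

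ADM (chromosome 11, 10304680 to 10307397, plus strand, GRCh38) had normalised values of 62.0, 41.7, 186 and 144 in control replicates 1 to 4, 3.01, 6.32, 6.07 and 5.07 in R1, and 6.51, 8.94, 16.4 and 14.9 in R2. The 3 groups did not overlap, the control libraries standing highest and R1 lowest. Of the 7 genes only ADM had ranges apart in R1 against control, lower, as did 39.7% of all genes. In R2 against control ADM and ANGPTL4 did, both lower (34.8% of all genes). Group means were 109 ± 68.2 in control, 5.12 ± 1.51 in R1 and 11.7 ± 4.73 in R2 (SD, n = 4). ADM fell 21.2-fold in R1 (log2 fold change -4.08, SE 0.42, adjusted p = 3.7e-06, limma) and 9.29-fold in R2 (-3.00, SE 0.42, adjusted p = 0.00010). Log2 fold changes throughout are on the log2(value + 0.5) scale, and folds are ratios of means without that addition.

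The spread of ADM in control was wide, replicates 3 and 4 averaging 3.19 times replicates 1 and 2, yet both falls kept their call against either pair of control libraries. Against replicates 1 and 2 alone the log2 fold change was -3.24 in R1 and -2.16 in R2, and against replicates 3 and 4 alone -4.92 and -3.84. ADM stood 2.28-fold higher in R2 than in R1 (log2 fold change 1.07, adjusted p = 0.0466, limma). That last call was lost with an added 1 in place of 0.5 (1.01, adjusted p = 0.0543) and without R1 replicate 1, 3 or 4 or R2 replicate 2, 3 or 4, with adjusted p up to 0.127. Replicate 2 of R1, in which NDRG1 was at its highest, had an ADM value 1.04 times the next highest R1 library.

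ADM signals through the receptor CALCRL with a RAMP co-receptor, and 4 of 9 genes listed for its receptor, processing and family were measured. CALCRL was not among them. RAMP2, the co-receptor that favours adrenomedullin, had means of 0.492 in control, 1.72 in R1 and 0.0970 in R2. It rose in R1 (log2 fold change 1.15, adjusted p = 0.00063, limma) and fell in R2 (-0.74, adjusted p = 0.0185), so in R1 ligand and co-receptor transcripts differed from control in opposite directions. Its R2 libraries ranged from 0 to 0.250, and the R2 call was lost without control replicate 3 or 4 or R2 replicate 1 (adjusted p up to 0.0574). RAMP2 is best known from endothelium, of which 5 of 14 markers were measured, with sums of 453 to 602 in R1. TIE1 (mean 394) and ROBO4 (89.3) made up most of that sum, and PECAM1 (2.55) was not called in R1 against control. The part of endothelial cells in the RAMP2 values was not tested. ADM2, a related peptide gene, fell in R2 (0.418 against 1.88 in control, -1.39, adjusted p = 0.0122), a call lost against control replicates 1 and 2 alone.

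ANGPTL4 (chromosome 19, 8363289 to 8374373, plus strand) had values of 4.17, 8.37, 30.8 and 17.0 in control, 19.2, 14.1, 4.18 and 2.84 in R1, and 1.80, 1.35, 1.09 and 0.780 in R2. Every R2 library lay below every control and R1 library, while the ranges of control and R1 overlapped. Means were 15.1 ± 11.8, 10.1 ± 7.87 and 1.26 ± 0.432 (SD, n = 4), the R2 value resting on 143 reads in all. ANGPTL4 fell 12.02-fold in R2 against control (log2 fold change -2.84, SE 0.58, adjusted p = 0.0022, limma) and 8.01-fold against R1 (-2.25, adjusted p = 0.0058). The difference between R1 and control was -0.59 (SE 0.58) with an adjusted p of 0.435.

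Against control replicates 1 and 2 alone, ANGPTL4 in R2 was -1.91 with an adjusted p of 0.0508, so the call was lost. The difference from R1, in which no control library enters the means, kept its call without any single library (log2 fold change -2.68 to -1.83). Of the 5 measured genes among 18 listed for angiopoietin-like proteins, lipoprotein lipase and their regulation, PPARG, a nuclear receptor known to induce ANGPTL4, also fell in R2. Its means were 1.17 in control, 1.79 in R1 and 0.281 in R2 (R2 against control -1.11, adjusted p = 0.0016; R2 against R1 -1.55, adjusted p = 5.8e-05). PPARA fell in R1 (19.4 against 32.4, -0.87, adjusted p = 0.0229) with overlapping ranges, a call lost without control replicate 4 or R1 replicate 3 or 4 (adjusted p up to 0.0772), and PPARD was higher in R2 than in R1 (0.38, adjusted p = 0.0044).

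VEGFA (chromosome 6, 43770184 to 43786487, plus strand), the main growth factor for blood vessels, had values of 98.0, 111, 234 and 232 in control, 76.6, 133, 111 and 104 in R1, and 109, 92.5, 123 and 128 in R2. Control replicates 3 and 4 stood alone, and the other 10 libraries lay between 76.6 and 133. Means were 168.98 ± 74.5, 106 ± 23.3 and 113 ± 15.7 (SD, n = 4). None of its differences passed the test (R1 -0.58, SE 0.26, adjusted p = 0.0878; R2 -0.47, adjusted p = 0.193; R2 against R1 0.10, adjusted p = 0.769, limma). VEGFA was called lower in R1 by DESeq2 on the recovered reads (-0.67, adjusted p = 0.0235) and by limma without control replicate 1 (-0.80, adjusted p = 0.0196) or 2 (-0.74, adjusted p = 0.0444).

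With control replicates 1 and 2 alone the VEGFA difference was -0.00 in R1 and 0.10 in R2. Against replicates 3 and 4 alone it was -1.16 and -1.05, called in both. Of 9 other VEGF ligand and receptor genes 4 were measured. VEGFC, the lymphatic growth factor, fell in R1 (46.1 against 74.7, -0.73, adjusted p = 0.011, limma), and NRP1, a VEGF co-receptor also made by melanoma cells, fell in R1 (155 against 248, -0.69, adjusted p = 0.00076). In R2 its mean was 189 (-0.39, adjusted p = 0.0394), a call lost without control replicate 1, 2 or 4, R1 replicate 4 or R2 replicate 2, 3 or 4. The VEGFC call was lost against control replicates 1 and 2 alone.

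NDRG1, BNIP3 and PDK1 were high in the same 3 libraries, control replicates 3 and 4 and R1 replicate 2, and none of their differences between groups passed the test. NDRG1 (chromosome 8, 133237171 to 133302022, minus strand), N-myc downstream regulated gene 1, a stress protein strongly induced by low oxygen, had values of 11.4, 32.0, 744 and 499 in control. It had 50.1, 1540, 64.2 and 54.7 in R1, and 33.9, 69.5, 28.3 and 26.9 in R2. R1 replicate 2 was 27.3 times the mean of the other R1 libraries, and control replicates 3 and 4 averaged 28.7 times replicates 1 and 2, so that control and R1 each spanned low and high libraries. R2 spanned the narrowest range, its replicate 2 at 2.34 times the mean of the others.

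Group means of NDRG1 were 322 ± 361, 427 ± 742 and 39.7 ± 20.1 (SD, n = 4), and none of its differences was called by limma (R1 0.24, SE 1.25, adjusted p = 0.894; R2 -1.56, adjusted p = 0.379; R2 against R1 -1.80, adjusted p = 0.253). On recovered reads R2 was called below R1 by edgeR (-3.43, adjusted p = 0.0432) and by DESeq2 (-3.43, adjusted p = 0.0156), a contrast in which R1 replicate 2 supplies most of the R1 reads. Its within-group SD on the log2 scale, 2.21, was the largest of all 12931 genes. ANGPTL4 ranked 38 (1.01), BNIP3 59 (0.93), ADM 179 (0.72), PDK1 239 (0.68), VEGFA 930 (0.45) and KDM3A 3375 (0.29), where the median gene had 0.213.

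**Figure D2:**
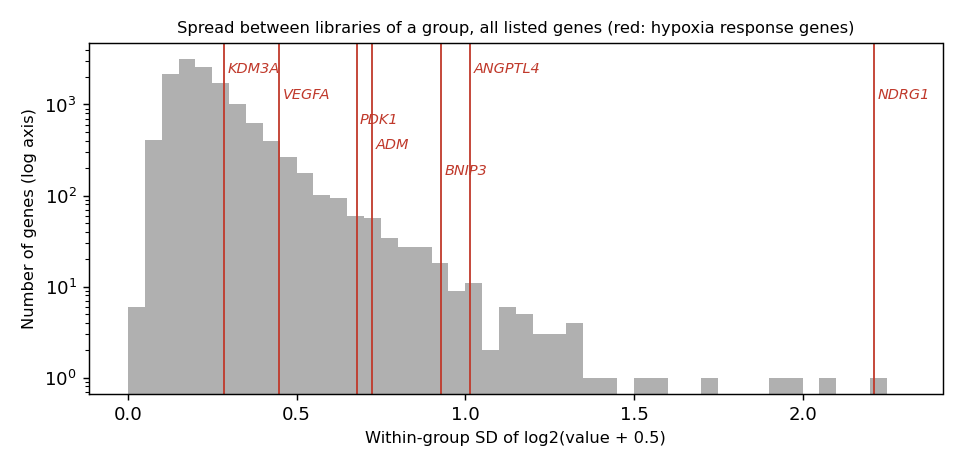
Number of genes (log axis) by within-group SD of log2(value + 0.5) over the 12 libraries, for all 12931 genes in grey, with the 7 hypoxia response genes as red lines. NDRG1 is at the far right at 2.21, and 6 of the 7 genes lie well above the median of 0.213, with KDM3A (0.29) nearest to it.

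BNIP3 (chromosome 10, 131966455 to 131982013, minus strand), a receptor that marks mitochondria for removal by autophagy, had values of 55.0, 89.6, 294 and 295 in control, 70.3, 290, 82.5 and 70.8 in R1, and 79.4, 108, 62.6 and 67.4 in R2. The 3 high libraries lay between 290 and 295 and the other 9 between 55.0 and 108. Means were 183 ± 129, 128 ± 108 and 79.4 ± 20.5 (SD, n = 4), and the groups overlapped (R1 -0.46, SE 0.53, adjusted p = 0.502; R2 -0.89, adjusted p = 0.228; R2 against R1 -0.43, adjusted p = 0.531, limma). BNIP3L, the related mitophagy receptor, ran from 35.9 to 71.0 outside the controls and was at 105 and 107 in control replicates 3 and 4 against 47.9 and 59.5 in replicates 1 and 2. Of 24 measured mitophagy genes 4 rose and 6 fell in R1, and 1 rose and 8 fell in R2. The shares called were 41.7% and 37.5%, against 43.8% and 28.4% of all genes. DNM1L, the mitochondrial fission enzyme, fell in R1 (64.6 against 131, -1.04, adjusted p = 2.6e-05, limma). BCL2L1 fell in R2 (109 against 190, -0.79, adjusted p = 0.00022, limma).

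PDK1 (chromosome 2, 172555373 to 172608669, plus strand), a kinase that switches off pyruvate dehydrogenase and so keeps pyruvate out of mitochondria, had values of 26.2, 34.9, 103 and 108 in control, 42.4, 92.5, 45.3 and 53.9 in R1, and 32.0, 38.3, 28.3 and 29.8 in R2. The same 3 libraries stood highest, and every R2 library lay below every R1 library without passing the test (log2 fold change -0.79, adjusted p = 0.108, limma). Ranges of R2 and R1 failed to overlap for 39.4% of all genes, 19.1% higher and 20.3% lower, and for 3 of the 7 here, ADM higher and ANGPTL4 and PDK1 lower. Means of PDK1 were 68.0 ± 43.5, 58.5 ± 23.2 and 32.1 ± 4.38 (SD, n = 4), with R1 at -0.02 (SE 0.39, adjusted p = 0.967) and R2 at -0.82 (adjusted p = 0.132) against control. PDK1 in R2 was called lower against control without control replicate 1 (-1.18, adjusted p = 0.0233), and against R1 when only those 2 groups entered the fit (adjusted p = 0.0149).

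Of 11 measured genes for pyruvate dehydrogenase, its kinases and phosphatases and pyruvate import, 1 rose and 4 fell in R1. In R2 3 rose and 3 fell, and 5 were higher and 0 lower in R2 than in R1. The shares called were 45.5%, 54.5% and 45.5%, against 43.8%, 28.4% and 46.8% of all genes. PDK3, another kinase of the complex, rose in R2 (4.56 against 1.85, log2 fold change 1.11, adjusted p = 0.0028, limma), so PDK3 and PDK1 had differences of opposite sign there, with that of PDK1 not called. PDP1, the opposing phosphatase, fell in R1 (58.0 against 106, -0.88, adjusted p = 4.0e-05), and MPC1, a subunit of the mitochondrial pyruvate carrier, rose in both groups (0.75, adjusted p = 0.00030, and 0.69, adjusted p = 0.00098).

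KDM3A (chromosome 2, 86440647 to 86492716, plus strand), an oxygen-dependent histone H3 lysine demethylase whose gene HIF induces, varied least. Its values were 15.4, 17.7, 25.01 and 25.4 in control, 26.4, 35.2, 22.2 and 24.6 in R1, and 26.0, 33.8, 24.5 and 25.9 in R2. Replicate 2 was the highest in both R1 and R2, and control replicates 1 and 2 were the lowest of all 12 libraries. Means were 20.9 ± 5.09, 27.1 ± 5.66 and 27.5 ± 4.22 (SD, n = 4), and KDM3A was the only one of the 7 with a positive difference in R2 against control (0.41, adjusted p = 0.106). The differences were 0.38 in R1 (SE 0.18, adjusted p = 0.105) and 0.03 between R2 and R1 (adjusted p = 0.900, limma). Of 20 measured JmjC demethylase genes 2 rose and 3 fell in R1 and 0 rose and 4 fell in R2. In both comparisons the share called was below that of all genes (43.8% and 28.4%). KDM6B, an H3K27 demethylase, was lower in R1 and R2 than in control (14.9 and 24.6 against 43.6, adjusted p = 5.3e-05 and 0.012, limma). The R2 call of KDM6B was lost against control replicates 1 and 2 alone.

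Set per kilobase of merged exon, the genes ranked in control as ADM (39.9 ± 25.1), BNIP3 (34.5 ± 24.3), NDRG1 (32.7 ± 36.7), VEGFA (11.7 ± 5.16), ANGPTL4 (6.08 ± 4.75), PDK1 (4.57 ± 2.92) and KDM3A (1.56 ± 0.380), in normalised reads per kilobase (SD, n = 4). Every pair of neighbours in that order overlapped within 1 SD of their means. In R1 the order was NDRG1 (43.5 ± 75.5), BNIP3 (24.1 ± 20.2), VEGFA (7.37 ± 1.61), ANGPTL4 (4.06 ± 3.17), PDK1 (3.93 ± 1.56), KDM3A (2.02 ± 0.421) and ADM (1.88 ± 0.554), again with every pair of neighbours overlapping. By this measure ADM had the highest mean level of the 7 in control and the lowest in R1. The order depends on merged exon length, which was 2718 bases for ADM, 5325 for BNIP3, 9823 for NDRG1 and 14431 for VEGFA. Before division, the control means of NDRG1 (322), BNIP3 (183) and VEGFA (168.98) exceeded that of ADM (109). ADM was the lowest in R1 before division too (5.12). Ranking by the length of single transcripts was not tested. In R2 BNIP3 (14.9 ± 3.85) and then VEGFA (7.84 ± 1.09) each stood apart from the next gene. ADM (4.30 ± 1.74), NDRG1 (4.04 ± 2.05), PDK1 (2.16 ± 0.294) and KDM3A (2.05 ± 0.314) overlapped with their neighbours, and ANGPTL4 stood apart as the lowest (0.506 ± 0.174).

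The choice of control libraries set the direction of several genes. The pairs, replicates 1 and 2 and replicates 3 and 4, were formed with their difference in these data known. All 7 genes were higher in replicates 3 and 4, so calls against either pair are descriptions. Against control replicates 1 and 2 alone, PDK1 in R1 was higher (log2 fold change 0.87, adjusted p = 0.0252, limma) and KDM3A was higher in R1 (0.68, adjusted p = 0.0174) and R2 (0.71, adjusted p = 0.0249). Against replicates 3 and 4 alone, PDK1 in R1 was lower (-0.92, adjusted p = 0.0163), as were BNIP3 (-1.49, adjusted p = 0.0263) and VEGFA (-1.16, adjusted p = 0.00095). In R2, NDRG1 was then at -4.04 (adjusted p = 0.0184), BNIP3 at -1.92 (adjusted p = 0.0109) and PDK1 at -1.71 (adjusted p = 0.00061). With replicates 3 and 4 as control, 4 of the 7 were called in R1 (32.7% of all genes) and 6 in R2 (21.5%). With replicates 1 and 2 they were 3 (33.0%) and 2 (15.7%). With replicates 1 and 2 and without R1 replicate 2, a choice also made after seeing the data, 4 were called in R1 (36.2%).

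**Figure D3:**
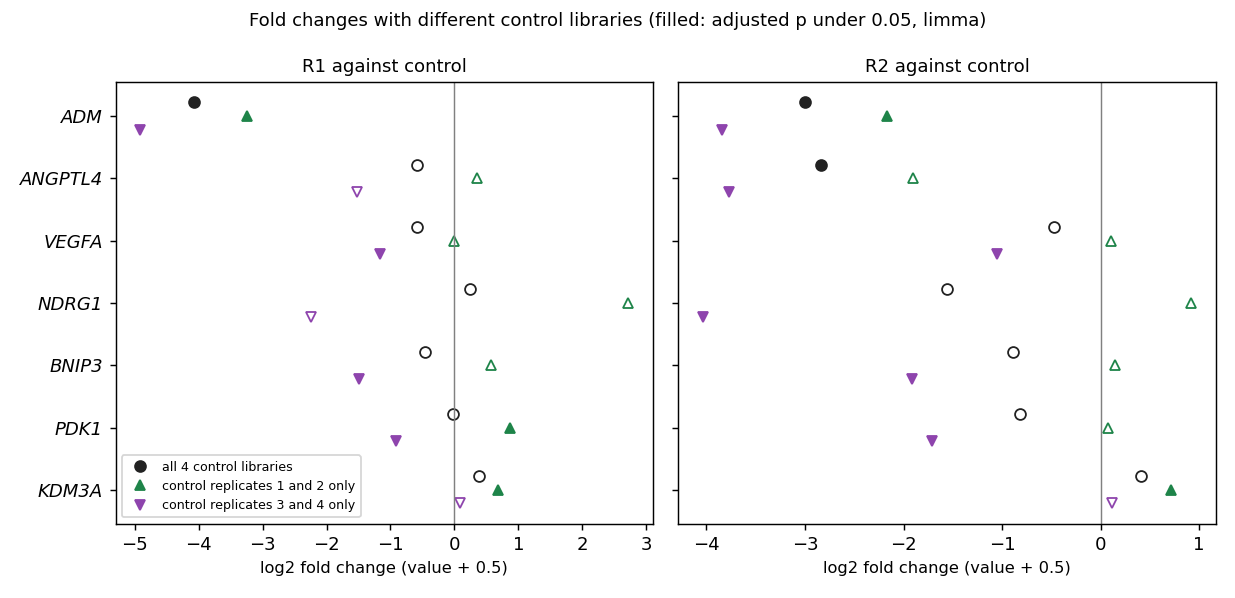
Log2 fold change of each gene in R1 and in R2 against all 4 control libraries, against control replicates 1 and 2 alone and against replicates 3 and 4 alone. ADM lies below 0 under every choice, whereas PDK1 in R1 moves from -0.92 to 0.87 and NDRG1 in R2 from -4.04 to 0.92.

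Among the 7 genes, control replicates 3 and 4 both exceeded replicates 1 and 2 in 7, R1 replicate 2 was the highest R1 library in 6 (all but ANGPTL4), and R2 replicate 2 was the highest R2 library in 4 (NDRG1, BNIP3, PDK1 and KDM3A). Over all measured genes these orders held for 29.7%, 33.4% and 30.7%. With the group means removed, the 6 pairs among NDRG1, BNIP3, PDK1 and KDM3A had Pearson r of 0.91 to 0.99 over the 12 libraries, and ADM with VEGFA had 0.88. The points share library depth and scaling. The remaining pairs then ran from 0.25 (ADM with ANGPTL4) to 0.87 (VEGFA with PDK1). Correlations were also taken without control replicates 3 and 4 and R1 replicate 2, with the group means of the other 9 libraries removed. There the 6 pairs had r of 0.69 to 0.98, and ADM with VEGFA had 0.65. Most of the remaining pairs were below 0 there, running from -0.72 (ADM with ANGPTL4) to 0.42 (ANGPTL4 with KDM3A).

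**Figure D4:**
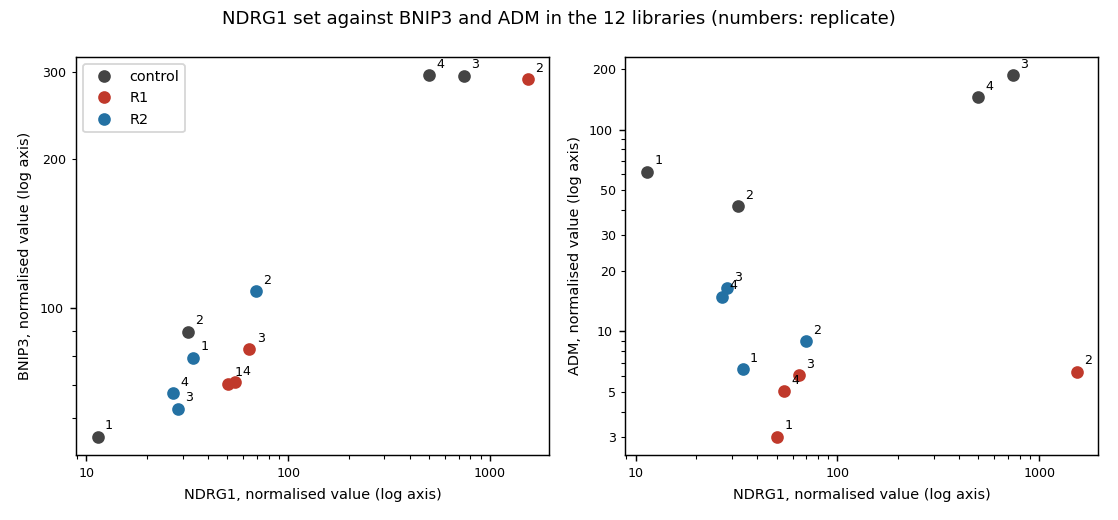
BNIP3 (left) and ADM (right) against NDRG1 in the 12 libraries, as normalised values on log axes, coloured by group and numbered by replicate. Control replicates 3 and 4 and R1 replicate 2 lie apart at NDRG1 values of 499 to 1540, with BNIP3 between 290 and 295, whereas ADM in R1 replicate 2 is at 6.32.

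The genes whose values over the 12 libraries were most like each of the 7 were taken from 10104 genes with a mean of at least 5, by Pearson r of log2 values, with group differences and the same library effects included. For NDRG1 they were P4HA1 (0.99), a collagen prolyl hydroxylase subunit, RASSF4 (0.98) and ANKZF1 (0.97), and for BNIP3 P4HA1 (0.98), ALDOC (0.97), an aldolase of glycolysis, and SPAG4 (0.97). PDK1 was most like PPP1R3B (0.97), SPAG4 (0.97) and PFKFB4 (0.97), the latter an enzyme that sets glycolytic rate. NDRG1 and BNIP3 thus shared P4HA1, and BNIP3 and PDK1 shared SPAG4. P4HA1 had values of 15.5, 23.3, 74.1 and 72.6 in control, 24.0, 95.5, 23.0 and 24.6 in R1, and 21.9, 26.1, 17.6 and 19.3 in R2, with the same 3 libraries high. KDM3A was most like SLC25A27 (0.95), NBAS (0.94) and ARFGAP3 (0.93), VEGFA like BHLHE40 (0.94), a transcription factor gene that HIF also induces, GBP1 (0.94) and PBX2 (0.93). ADM was most like OGDHL (0.97), CLEC2B (0.97) and RCN1 (0.96), and ANGPTL4 like SPNS2 (0.96), MPI (0.92) and SLC6A8 (0.92). SPNS2, MPI and SLC6A8 were also highest in control replicates 3 and 4 and R1 replicate 2. Over the 12 libraries ANGPTL4 had r of 0.67 with NDRG1, 0.68 with BNIP3 and 0.75 with PDK1. For ADM these were 0.25, 0.46 and 0.35.

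HIF1A, the gene of the HIF-1 alpha subunit, fell in R1, and EPAS1, that of HIF-2 alpha, rose in R1 and R2. HIF1A had values of 315, 329, 289 and 328 in control, 173, 213, 163 and 224 in R1, and 226, 301, 247 and 307 in R2. All R1 libraries lay below all control libraries, and R1 replicate 2 was within the range of the other R1 libraries. HIF1A fell in R1 (log2 fold change -0.72, adjusted p = 0.0005, limma), was higher in R2 than in R1 (0.48, adjusted p = 0.0070) and was at -0.23 in R2 against control (adjusted p = 0.194). ARNT, the shared partner, fell in R1 (65.3 against 119, -0.88, adjusted p = 6.1e-05) and was at -0.18 in R2 (adjusted p = 0.286), and ARNT2 fell in R1 (5.45 against 18.6, -1.71, adjusted p = 7.2e-05).

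EPAS1 had values of 9.30, 6.85, 11.5 and 11.6 in control, 18.8, 24.97, 23.8 and 27.1 in R1, and 23.2, 35.5, 22.4 and 20.8 in R2. Every library on the inhibitor diet exceeded every control library, and EPAS1 rose in R1 (1.24, adjusted p = 0.00016, limma) and R2 (1.33, adjusted p = 0.00015). HIF1A and EPAS1 transcripts therefore differed from control in opposite directions in R1. Per kilobase, HIF1A remained the higher in R1, at 37.5 ± 5.76 against 3.24 ± 0.484 (SD, n = 4).

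EGLN1, a prolyl hydroxylase that marks HIF alpha and is itself a HIF target, had values of 41.1, 47.2, 74.7 and 89.4 in control, 45.7, 77.4, 47.2 and 55.4 in R1, and 51.7, 49.5, 57.8 and 59.9 in R2. It was thus high in the same 3 libraries as NDRG1, and none of its differences was called. VHL and HIF1AN were not called in any comparison, and EGLN2 was lower in R2 than in R1 (-0.38, adjusted p = 0.0287, limma), a call lost without R1 replicate 1, 3 or 4 or R2 replicate 1, 3 or 4 (up to 0.0814). Of 22 measured HIF machinery genes, 6 rose and 5 fell in R1, 2 rose and 3 fell in R2, and 5 were higher and 8 lower in R2 than in R1. The share called was above that of all genes in R1 against control (43.8% of all genes) and in R2 against R1 (46.8%). It was below that of all genes in R2 against control (28.4%). CREBBP, a HIF coactivator, rose in R2 (152 against 92.0, 0.74, adjusted p = 0.0013), and RBX1, part of the VHL ubiquitin ligase, was lower in R2 than in R1 (-1.03, adjusted p = 5.1e-05).

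**Figure D5:**
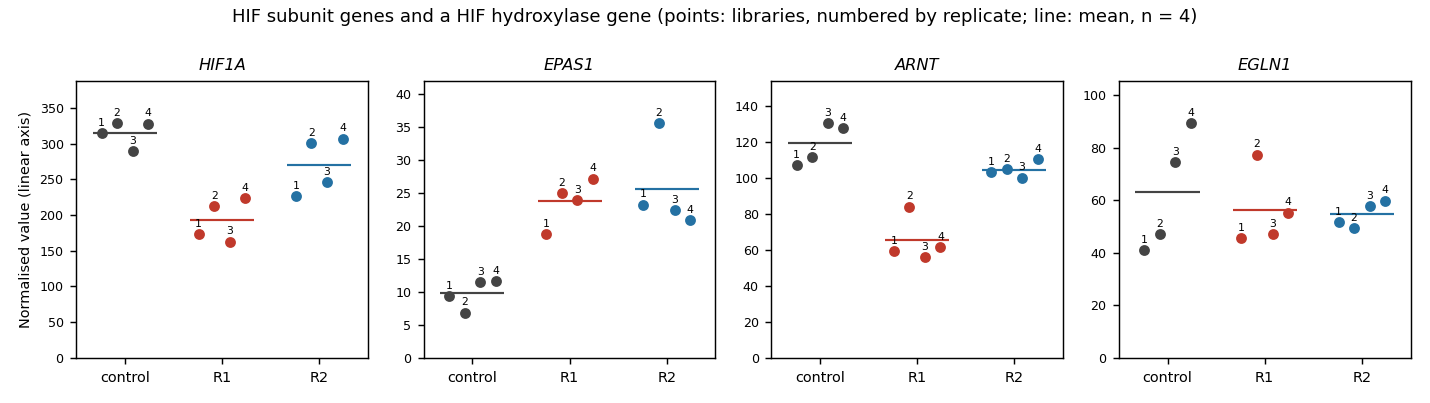
Normalised values (linear axis from 0) of HIF1A, EPAS1, ARNT and EGLN1 in the 12 libraries, as points numbered by replicate, with group means (n = 4) as lines. HIF1A and ARNT are lowest in R1, EPAS1 is lowest in control, and EGLN1 is high in control replicates 3 and 4 and R1 replicate 2.

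Of 83 other measured hypoxia targets, 16 rose and 17 fell in R1 (median log2 fold change -0.26), 1 rose and 21 fell in R2 (-0.36), and 13 were higher and 24 lower in R2 than in R1 (-0.34). The shares called were 39.8%, 26.5% and 44.6%, against 43.8%, 28.4% and 46.8% of all genes. The library orders seen in the 7 genes were frequent here too. Control replicates 3 and 4 exceeded replicates 1 and 2 in 71 of the 83 (85.5%), and R1 replicate 2 was the highest R1 library in 67 (80.7%). R2 replicate 2 was highest in 38 (45.8%). Counts against control again moved with the control libraries, from 10 called in R2 with replicates 1 and 2 to 38 with replicates 3 and 4.

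CA9, the tumour carbonic anhydrase commonly used as a hypoxia marker, had values of 0.601, 5.88, 82.9 and 63.5 in control, 10.5, 127, 20.7 and 13.3 in R1, and 1.95, 7.35, 1.06 and 0.780 in R2. It followed NDRG1, with R1 replicate 2 at 8.57 times the mean of the other R1 libraries and control replicates 3 and 4 at 22.6 times replicates 1 and 2. CA9 was lower in R2 than in R1 (2.79 against 42.9, -3.34, adjusted p = 0.0286, limma), a call lost without R1 replicate 2 or 3 or R2 replicate 1, 3 or 4 (adjusted p up to 0.0822). STC1, a secreted glycoprotein, fell in R2 as ANGPTL4 did (60.6 against 343 in control, -2.58, adjusted p = 8.8e-05). DDIT4, a stress-induced inhibitor of mTORC1, fell in R2 (35.0 against 226, -2.41, adjusted p = 0.0133), a call lost against control replicates 1 and 2 alone.

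Of the other targets named by size of change, TGFBI, an extracellular matrix protein, rose in R1 (193 against 46.4, log2 fold change 2.20, adjusted p = 0.00092, limma) and R2 (163, 1.79, adjusted p = 0.0062), the latter call being lost against control replicates 3 and 4 alone. S100A4 rose in R1 (101 against 31.9, 1.63) and was lower in R2 (14.9) than in R1 (-2.81). RAB20, a small GTPase, rose in R1 (10.9 against 4.80, 1.21), as did HMOX1, haem oxygenase 1 (9.37 against 4.18, 1.08). FOSL2, an AP-1 subunit, fell in R1 (106 against 291, -1.45, adjusted p = 1.3e-07), as did NEDD4L (134 against 295) and TPD52 (19.9 against 41.7). RRAGD, a GTPase of the amino acid sensing pathway, was higher in R2 than in R1 (7.56 against 0.463, 2.63), as was IGFBP3 (14.1 against 5.29, 1.22) with overlapping ranges. Without R2 replicate 2, which stood at 28.4, the ratio of IGFBP3 means was 1.77 in place of 2.67, and the call was kept (0.83, adjusted p = 0.0167).

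Of 22 HIF-induced glycolysis genes, 1 rose and 6 fell in R1, and 0 rose and 6 fell in R2. Between the inhibitor groups, 3 were higher and 5 lower in R2 than in R1. The shares called were 31.8%, 27.3% and 36.4%, against 43.8%, 28.4% and 46.8% of all genes. Control replicates 3 and 4 exceeded replicates 1 and 2 in 21 of them (95.5%), and R1 replicate 2 was the highest R1 library in 14 (63.6%). ALDOC, the gene like BNIP3, had 542 and 398 in control replicates 3 and 4 and 312 in R1 replicate 2, and between 42.9 and 158 in the other 9 libraries. LDHA, lactate dehydrogenase A, was higher in R2 than in R1 (2187 against 1039, log2 fold change 1.09, adjusted p = 0.00058, limma), with control at 2074. PKM, pyruvate kinase, fell in both groups (3155 and 2907 against 5397, -0.78 and -0.90).

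Of 7 measured genes among 9 listed for the NDRG family and its regulators, MYC, whose protein family represses NDRG1, fell in R1 (60.5 against 115, log2 fold change -0.92, adjusted p = 0.0054, limma), a call lost against control replicates 1 and 2 alone. GSK3B, whose kinase phosphorylates NDRG1, fell in R1 (78.4 against 111, -0.51, adjusted p = 0.0020). EGR1, a transcription factor gene downstream of ERK, fell in R2 (20.9 against 73.0, -1.93, adjusted p = 0.0203) with overlapping ranges, a call lost without control replicate 3 or 4 or R2 replicate 1 or 2 (up to 0.0705). Of these 7 genes 5 had control replicates 3 and 4 above replicates 1 and 2 (71.4%, against 29.7% of all genes). R1 replicate 2 was the highest R1 library in 1 (14.3%, against 33.4%).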

How the data were processed

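The labels name a Qiagen RNeasy mini kit for extraction and the TruSeq v2 kit for libraries, which does not mark strand, so reads of overlapping antisense transcripts cannot be told apart. The submitters' processing notes name STAR, edgeR and GRCh38; versions are not given in the sources used here. The deposited files hold 1 normalised signal value per gene, scaled by the authors by a factor per library that did not follow recovered reads alone. All values (100%) were whole multiples of 1 step per library (tolerance 0.001 reads), which gave the read numbers and the depth of 20003891 to 39009384 reads. Each file has 12931 rows with 12929 distinct symbols. Every row passed 1 CPM of recovered reads in 4 or more libraries, and none was removed.

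The fit was limma 3.58.1 in R 4.3.3 (eBayes with trend) on log2(value + 0.5), with a mean for each of the 3 groups and all 12 libraries together. P-values were two-sided, with Benjamini-Hochberg adjustment over all 12931 rows. A gene was called at an adjusted p under 0.05, and rose and fell refer only to called genes. Alternatives were edgeR 4.0.16 (quasi-likelihood) and DESeq2 1.42.0 on recovered reads, an added 0.1 or 1, a filter at a mean of 5, a replicate block, only the 2 groups compared, chosen control libraries, and each library left out. The fit was also tested on simulated data.

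The members and lists were chosen with earlier results of these data known. The genes named were the 7, the main HIF genes, the 4 called targets per direction with the largest change (mean of 5 or more), 2 called genes of each further list by smallest p, and the 3 genes most like each of the 7. Some of these are not printed. Gene positions and exon lengths are from GENCODE (GRCh38) and promoters from RefSeq (GRCh38.p14). Of 10 red cell, 10 keratinocyte and 11 fat and muscle markers, 1, 2 and 0 were measured. The red cell marker ranged from 0 to 2.33 and the keratinocyte sum from 14.0 to 39.9.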

Additional observations from a re-analysis of the deposited data

Results flagged for a closer look

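In 45 groups of 4 libraries, the highest or lowest library was checked for a gap to its neighbour above Dixon's limit for 4 values. These covered the 7 genes and 8 related genes in control, R1 and R2. The check used normalised values without a log, a scale that favours gaps at the high end. A rate of about 1 in 20 by chance holds only for normally distributed values and independent groups. Genes here shared libraries and varied together, so the number of passes is a description. The limit was passed 7 times, always by the highest library. In R1 replicate 2, NDRG1 stood at 1540, BNIP3 at 290 and CA9 at 127. In R2 replicate 2, NDRG1 stood at 69.5, KDM3A at 33.8 and EPAS1 at 35.5. EGLN2 stood at 7.503 in control replicate 3. R1 replicate 2 and R2 replicate 2 had 21456002 and 21789510 reads, the fewest in their groups. The part of depth in these values was not tested.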

How the results depend on the processing

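The falls of ADM in R1 and R2 against control kept their call under every alternative run, and the fall of ANGPTL4 in R2 under all but control replicates 1 and 2 alone (-1.91, adjusted p = 0.0508). Counts of called members in R1 against control were 1 in the main analysis, 2 by DESeq2, 3 with control replicates 1 and 2 alone, 4 with control replicates 3 and 4 alone, and 1 to 2 with single libraries left out. In R2 against control the 2 became 6 with control replicates 3 and 4 alone and 2 to 3 with single libraries left out. In R2 against R1 the 2 became 1 with an added 1, 3 by edgeR, by DESeq2 and with only the 2 groups compared, and 1 to 2 with single libraries left out. With control replicates 1 and 2 alone, 2032 genes and 10 other hypoxia targets were called in R2, and with replicates 3 and 4 alone 38 targets.

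Directions turned with control replicates 1 and 2 alone in R1 for ANGPTL4 (0.35), BNIP3 (0.57) and PDK1 (0.87), and in R2 for VEGFA (0.10), NDRG1 (0.92), BNIP3 (0.14) and PDK1 (0.074). NDRG1 in R1 was at -2.24 with control replicates 3 and 4 alone. A further alternative used control replicates 1 and 2 and no R1 replicate 2. Like the control pairs, it was chosen after seeing the data. In R1 it put ANGPTL4 at 0.069, BNIP3 at 0.082, PDK1 at 0.63 and NDRG1 at 1.53 (adjusted p = 0.0164, limma). It called 4 of the 7. With single libraries left out, R1 against control ran from -0.95 to 1.16 for NDRG1 and from -0.39 to 0.29 for PDK1. R2 against R1 then ran from -0.043 to 0.22 for VEGFA, -0.62 to 0.061 for BNIP3 and -0.068 to 0.16 for KDM3A. The cause was not tested.

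Replicate numbers did not pair the samples (correlations of same-numbered libraries -0.31 to 0.39). A replicate block gave 1, 2 and 2 called members, as without it, and 5798, 3733 and 6162 called genes against 5667, 3667 and 6053. Depth limits ANGPTL4 most, at 143 reads over the R2 libraries.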

Other observations

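The ATF4 pathway is switched on by amino acid shortage and endoplasmic reticulum stress, and its listed targets showed the library orders in part. TRIB3, VLDLR, DDIT4 and PPP1R15A were also among the other hypoxia targets, so counts of these lists are not independent. Of 12 measured ATF4 targets 10 had control replicates 3 and 4 above replicates 1 and 2, as did 29.7% of all genes. R1 replicate 2 was the highest R1 library in 10 (33.4% of all genes). Only 2 had R2 replicate 2 as the highest R2 library (30.7% of all genes). By group, 2 rose and 1 fell in R1, 0 rose and 6 fell in R2, and 0 were higher and 7 lower in R2 than in R1, where 43.8%, 28.4% and 46.8% of all genes were called. ATF3, a stress transcription factor, fell in R2 (1.80 against 6.93 in control, log2 fold change -1.77, adjusted p = 0.0033, limma), as did CHAC1, a glutathione-degrading enzyme (1.35 against 4.71, -1.50, adjusted p = 0.00064). The ATF3 call was lost against control replicates 1 and 2 alone. PHGDH, the first enzyme of serine synthesis, rose in R1 (215 against 111, 0.94, adjusted p = 0.00027).

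Transcripts that report ERK output belong to the pathway that the MEK inhibitor acts on. Of 15 such genes 4 rose and 1 fell in R1, 2 rose and 7 fell in R2, and 2 were higher and 10 lower in R2 than in R1. The shares called were 33.3%, 60.0% and 80.0%, against 43.8%, 28.4% and 46.8% of all genes. SPRY4, a feedback inhibitor of receptor signalling, had a mean of 56.0 in control, 139 in R1 and 48.5 in R2 (R1 against control 1.30, adjusted p = 4.0e-05; R2 against R1 -1.55, adjusted p = 9.0e-06). PHLDA1 fell in R2 (102 against 534, -2.35, adjusted p = 9.8e-07). In these 15 genes control replicates 3 and 4 exceeded replicates 1 and 2 in 10 (66.7%, against 29.7% of all genes). R1 replicate 2 was the highest R1 library in 4 (26.7%, against 33.4%). R2 replicate 2 was the highest R2 library in 1 (6.67%, against 30.7%).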
